A study of Mus musculus with 18 samples.

Results

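The 9 enzyme genes described here move amino groups between glutamate, aspartate, asparagine, alanine, glutamine and the branched-chain amino acids. They are Asns, Gpt1 (current symbol Gpt), Gpt2, Got1, Got2, Glul, Glud1, Bcat1 and Bcat2, and all 9 were found by symbol in the array's annotation. Bcat1 had 2 probes and each of the others had 1, so 10 of the 21973 probes and 9 of the 16675 named genes are covered. The arrays came from NMuMG cells, an established epithelial line from normal mouse mammary gland, after 8 hr in 10 nM halofuginone (HF) or in 10 nM MAZ1310, an HF analog that the study used as its inactive control. Both compounds were given in acidified DMSO to freshly plated cells in complete medium with serum and insulin, and arrays of untreated cells were not analysed here. Each treatment had 3 cultures, each culture was hybridized to 3 technical arrays, and the 18 single-color arrays carry quantile-normalized intensities. All cells were of one line, so the values describe that line. Levels below are log2 intensities, with the technical arrays averaged per culture (n = 3 cultures per treatment). A change is the HF mean minus the MAZ1310 mean, and it was tested with limma over all genes at a Benjamini-Hochberg adjusted p under 0.05.

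Glutamate is the hub of these reactions. Aminotransferases pass its amino group to pyruvate, making alanine (Gpt1, Gpt2), or to oxaloacetate, making aspartate (Got1, Got2). Asns uses glutamine and aspartate to make asparagine, Glul makes glutamine from glutamate and ammonia, and Glud1 links glutamate to 2-oxoglutarate in mitochondria. Bcat1 and Bcat2 move amino groups between the branched-chain amino acids and glutamate. Got1 and Bcat1 are cytosolic and Got2 and Bcat2 mitochondrial, while Gpt1 is known as the cytosolic and Gpt2 as the mitochondrial alanine aminotransferase. Asns is a classical target of Atf4, the factor that is translated more when eIF2α is phosphorylated, as happens when uncharged tRNA accumulates in amino acid shortage.

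Of the epithelial markers, the keratins and Cdh1 were measured at high intensity in both treatments. The summed intensity of 9 markers was between 171122 and 174678 in HF cultures and between 150784 and 165189 in MAZ1310 cultures. Krt8 had a mean level of 15.99 in HF and 15.94 in MAZ1310. The probe for Epcam (listed as Tacstd1) read 6.07 in HF and 5.94 in MAZ1310, within the dimmest 25% of all probes (levels under 6.58). Cldn3 (7.03 in HF and 7.18 in MAZ1310) and Cldn7 (7.96 and 7.74) were also low. Some markers of other cell types read above these, such as Cd3e (8.61 in HF and 8.91 in MAZ1310), Cyp7a1 (8.70 and 8.89) and Alb (8.28 and 8.25). The 8 fibroblast markers had summed intensities of 627 to 671 in HF and 601 to 735 in MAZ1310. Their mean levels over all cultures ran from 5.77 to 6.77. The 5 adipocyte markers summed to 406 to 538 in HF and 426 to 515 in MAZ1310. For the 7 blood and endothelial markers the sums were 1042 to 1761 in HF and 1180 to 2176 in MAZ1310. The 4 hepatocyte markers summed to 831 to 1011 in HF and 927 to 1178 in MAZ1310. Among all marker genes only Ttr, from the 4 hepatocyte markers, passed the test (log2 fold change -1.02, adjusted p = 0.0455 by limma). Across all genes 3.02% were called. The HF mean of Ttr was 6.15, under the level of 6.58 given above for dim probes, and its MAZ1310 mean was 7.17. Krt8 and Krt18 gave 75.0 to 75.9% of the epithelial sum in HF and 78.4 to 79.5% in MAZ1310. Krt18 was at the highest value of its array on 9 of 9 HF and 8 of 9 MAZ1310 arrays and Krt8 on 8 of 9 of each, so a difference in them could not be read. The sum of the other 7 epithelial markers was 41417 to 43608 in HF and 31539 to 35743 in MAZ1310, again without overlap. Krt19 had a log2 fold change of 0.68 (adjusted p = 0.297 by limma), and the part of these differences in the results was not tested. The correlation of an array with the mean of the others ran from 0.959 to 0.988 and was lowest for technical array 2 of HF replicate 3. Leaving this array out ended no call among the 9 enzymes. In these bulk samples, fewer cells of a type and less RNA per cell cannot be told apart.

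Of the 9 enzymes, Gpt2 and Asns were called higher in HF and none was called lower. Across all genes 1.45% were called higher and 1.57% lower. Gpt2 was 3.43-fold higher and Asns 2.18-fold higher in HF than in MAZ1310. The remaining 7 enzymes did not pass the test, and the changes of Got1 and Bcat2 were the largest of these in either direction. The median log2 fold change of the 9 enzymes was 0.073, beside -0.0020 over all genes. The HF and MAZ1310 cultures did not overlap for Gpt2, Asns and Got1, all higher in HF, or for Bcat2, lower in HF. Such separation was found for 11.2% of all genes with HF higher and 9.85% with HF lower.

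**Figure D1:**
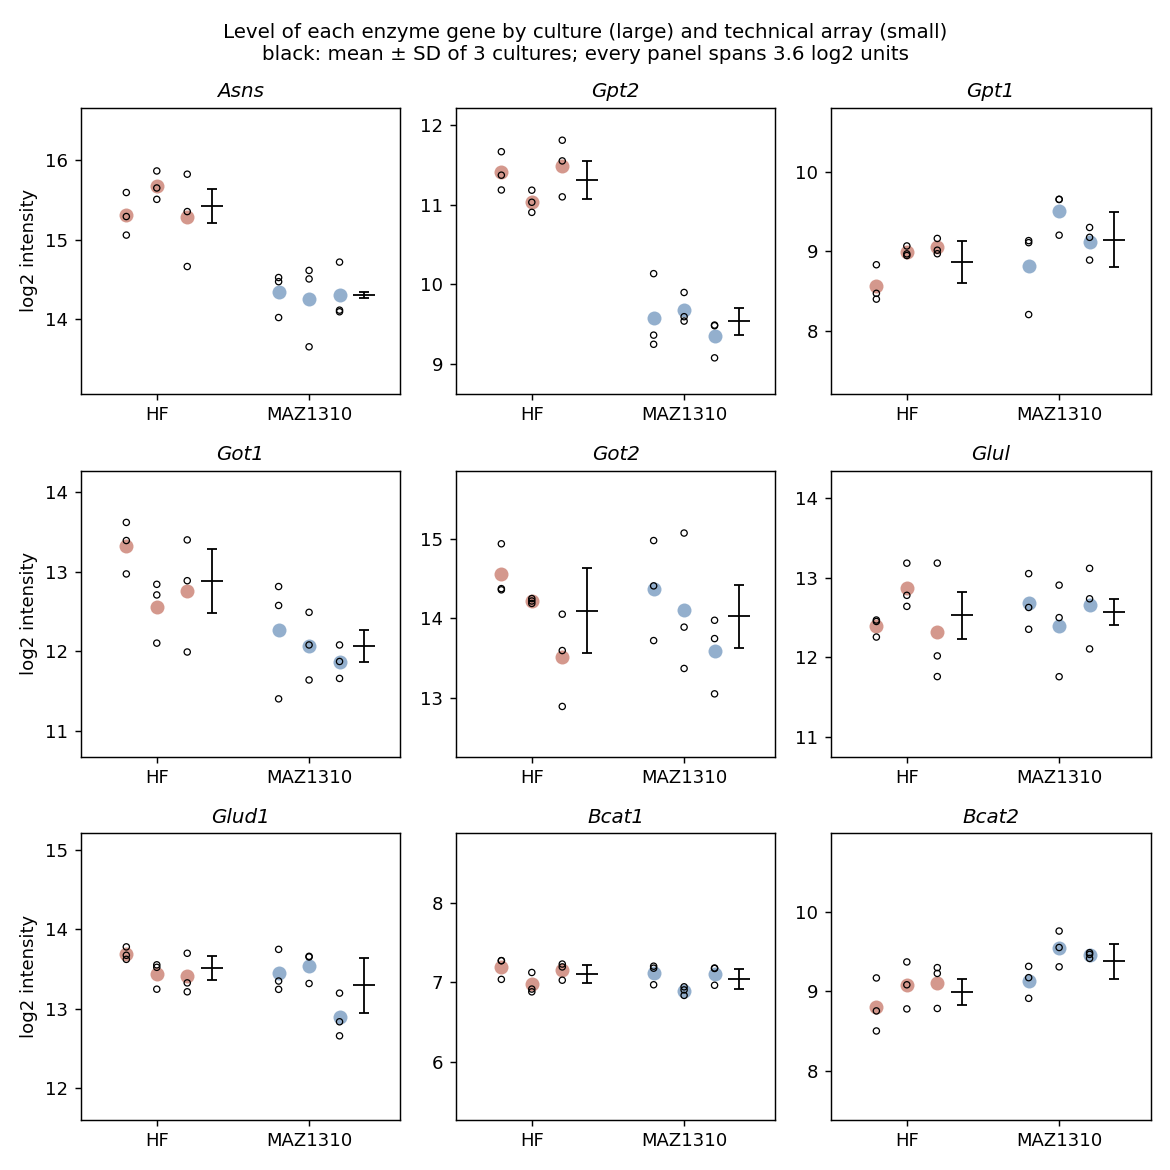
Log2 intensity (vertical axis) of each of the 9 enzyme genes in HF and MAZ1310 cultures. Filled points are the 3 cultures of a treatment, small open points their technical arrays and black marks the mean ± SD of the cultures. The HF cultures of Gpt2 (11.04 to 11.49) and Asns (15.28 to 15.68) lie above all their MAZ1310 cultures, and those of Got2, Glul, Glud1, Gpt1 and Bcat1 overlap with them.

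Of the 8 enzyme genes with a start region to search, Asns and Got1 held a sequence known as the C/EBP-ATF response element, the kind of site through which Atf4 acts on amino acid response genes. The core searched was TGATGNAA on both strands, together with GTTACAG, the second element described at the Asns gene, in windows running from before to after the annotated start of each gene in RefSeq (GRCm38.p6, 300 bases each). Gpt1 was not searched, and the windows of the others were 10 in number because Bcat1 and Bcat2 each have alternative starts. The windows are shown for Asns, the enzyme with both elements, for Got1, and for Gpt2, the enzyme with the largest rise. Each is written 5′ to 3′ on the strand of the gene, with matches to either element in capitals.
Asns, chr6:7693160-7693459, minus strand: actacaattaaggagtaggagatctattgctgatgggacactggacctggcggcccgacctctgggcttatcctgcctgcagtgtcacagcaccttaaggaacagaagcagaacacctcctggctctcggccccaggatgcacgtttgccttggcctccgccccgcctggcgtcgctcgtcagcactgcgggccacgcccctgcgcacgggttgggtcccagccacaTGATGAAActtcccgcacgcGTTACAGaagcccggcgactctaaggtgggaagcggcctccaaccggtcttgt
Got1, chr19:43524556-43524855, minus strand: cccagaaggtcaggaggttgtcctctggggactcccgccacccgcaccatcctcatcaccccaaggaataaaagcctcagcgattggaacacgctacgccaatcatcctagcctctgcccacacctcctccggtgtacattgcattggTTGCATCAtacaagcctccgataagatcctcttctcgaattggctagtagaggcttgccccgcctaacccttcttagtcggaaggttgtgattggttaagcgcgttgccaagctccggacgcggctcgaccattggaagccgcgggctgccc
Gpt2, chr8:85492326-85492625, plus strand: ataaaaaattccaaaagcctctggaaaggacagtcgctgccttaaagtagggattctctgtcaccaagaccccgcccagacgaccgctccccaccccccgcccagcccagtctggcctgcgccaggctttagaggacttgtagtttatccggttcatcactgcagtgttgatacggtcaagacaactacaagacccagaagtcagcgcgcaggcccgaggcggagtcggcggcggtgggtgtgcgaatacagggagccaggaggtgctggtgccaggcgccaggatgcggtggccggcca
In the Asns window TGATGAAA began 23 bases before the annotated start, and GTTACAG began 3 bases before it, downstream of the first element and without overlap. In the Got1 window the match stood on the opposite strand, as TTGCATCA, and began 102 bases before the start. The Gpt2 window held neither element in these letters. TGATGNAA was found in 2 of the 10 windows of the enzymes (20%) and in 3.97% of the 32851 windows of all genes. GTTACAG was found in 1 of the 10 and in 3.10% of all. The GTTACAG match was that of Asns, where this element has been described, so it was fixed in advance. Asns also held 1 of the 2 TGATGNAA matches, so neither share can be read as enrichment in the enzymes. These matches are a description of letters and not of bound sites.

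Asns makes asparagine, the amino acid at the end of this branch. Its level was 15.32, 15.68 and 15.28 in the HF cultures, against 14.34, 14.26 and 14.31 in the MAZ1310 cultures. All HF cultures lay above all MAZ1310 cultures, with 0.94 log2 units between the lowest HF and the highest MAZ1310 culture. HF averaged 15.43 ± 0.22 and MAZ1310 14.3 ± 0.041 (SD, n = 3 cultures each). Of the 9 HF arrays, 8 lay above the highest MAZ1310 array. HF minus MAZ1310 was 1.12 on the log2 scale (standard error, SE, 0.15, 95% confidence interval, CI, 0.77 to 1.47, adjusted p = 0.0194 by limma), which ranked 97 of 16675 genes by p. The probe was bright, with intensities from 25976 to 59767 in HF and from 12900 to 26995 in MAZ1310, and 0 of them were at the highest value found on the arrays. In the fit over genes the call of Asns ended without HF replicate 1 (adjusted p = 0.0536 by limma), HF replicate 2 (0.0699), MAZ1310 replicate 2 (0.0879) or MAZ1310 replicate 3 (0.0681), with log2 fold changes of 1.18, 1.00, 1.10 and 1.12 there. In the fit over all probes the call (adjusted p = 0.0230 by limma) was lost without these and also without HF replicate 3 (log2 fold change 1.19, adjusted p = 0.0548). The study had picked Asns among stress response genes by its change in these same samples, so its rise is not independent of that choice.

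Gpt2 makes alanine from pyruvate and had the largest rise of the 9 enzymes. Its level was 11.41, 11.04 and 11.49 in the HF cultures, against 9.58, 9.68 and 9.35 in the MAZ1310 cultures. The groups stood apart by 1.36 log2 units, and all 9 HF arrays (lowest 10.9, median 11.19, highest 11.81) lay above all 9 MAZ1310 arrays (lowest 9.07, median 9.49, highest 10.13). HF averaged 11.31 ± 0.24 and MAZ1310 9.53 ± 0.17 (SD, n = 3 each). Its log2 fold change was 1.78 (SE 0.17, 95% CI 1.38 to 2.18, adjusted p = 0.00686 by limma), which placed Gpt2 at rank 29 of all genes both by p and from the highest log2 fold change. In the fit over genes no left-out culture ended the call, and the log2 fold change then ran from 1.68 to 1.91. In the fit over all probes, where 1.15% were called higher, its probe had an adjusted p of 0.00929 by limma and lost its call without MAZ1310 replicate 2 (log2 fold change 1.85, adjusted p = 0.0505).

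Gpt1, the other alanine aminotransferase, did not pass the test. Its level was 8.56, 8.99 and 9.04 in the HF cultures, against 8.81, 9.50 and 9.12 in the MAZ1310 cultures. The groups overlapped, with HF replicates 2 and 3 inside the MAZ1310 range and HF replicate 1 below it. Its log2 fold change was -0.28 (SE 0.22, 95% CI -0.79 to 0.24, adjusted p = 0.673 by limma). Within cultures the log2 difference of Gpt2 over Gpt1 was 2.45, 1.66 and 2.05 in HF and 0.38, -0.21 and -0.16 in MAZ1310, each given relative to the MAZ1310 mean. The log2 fold change of Gpt2 minus that of Gpt1 was 2.06 (SE 0.30). Permuting the cultures gave an exact two-sided p = 0.1, the lowest possible with 3 cultures against 3, and 0.15 adjusted over the 3 isoenzyme pairs compared.

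Got1, the cytosolic aspartate aminotransferase, had the third largest change. Its level was 13.33, 12.55 and 12.76 in the HF cultures, against 12.26, 12.07 and 11.87 in the MAZ1310 cultures. The cultures did not overlap, by a margin of 0.29 log2 units, and 6 of the 9 HF arrays lay above the highest MAZ1310 array. Its log2 fold change was 0.81 (SE 0.22, 95% CI 0.29 to 1.34), a 1.76-fold difference that did not pass after adjustment over all genes (adjusted p = 0.113 by limma, unadjusted p = 0.00793). With 1 culture left out the log2 fold change ran from 0.59 to 0.98.

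Got2, the mitochondrial aspartate aminotransferase, overlapped widely between the treatments. Its level was 14.56, 14.22 and 13.51 in the HF cultures, against 14.37, 14.11 and 13.59 in the MAZ1310 cultures. Each treatment had its lowest value in replicate 3, and the spread within a treatment (SD 0.53 in HF and 0.40 in MAZ1310) was larger than the difference between them. The log2 fold change was 0.073 (SE 0.31), with a 95% CI of -0.65 to 0.79 (adjusted p = 0.964 by limma). For Got1 against Got2 the difference of log2 fold changes was 0.74 (SE 0.29, exact two-sided permutation p = 0.1, and 0.15 adjusted over the 3 pairs). This within-culture difference did not overlap between treatments, with 0.73, 0.29 and 1.20 in HF and -0.15, -0.086 and 0.23 in MAZ1310.

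Glul, which joins glutamate to ammonia, and Glud1, which links glutamate to 2-oxoglutarate, did not pass the test. Glul, glutamine synthetase, had levels of 12.39, 12.86 and 12.32 in the HF cultures, against 12.67, 12.38 and 12.65 in the MAZ1310 cultures. HF replicate 2 was the highest of the 6 and the other HF cultures lay near or below MAZ1310 replicate 2. Glul had a log2 fold change of -0.046 (SE 0.18, 95% CI -0.48 to 0.39, adjusted p = 0.962 by limma). Glud1, glutamate dehydrogenase, had levels of 13.69, 13.44 and 13.41 in the HF cultures, against 13.45, 13.54 and 12.9 in the MAZ1310 cultures. MAZ1310 replicate 3 stood below the other 5 cultures, and without it the log2 fold change of Glud1 was 0.020, against 0.22 with all cultures (SE 0.20, 95% CI -0.25 to 0.69, adjusted p = 0.741 by limma). The intervals of Glul and Glud1 leave out a 2-fold change in either direction.

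Neither branched-chain aminotransferase passed the test. Bcat1 was read by a probe with a mean level of 6.12 in HF and 6.09 in MAZ1310, within the dimmest 25% of all probes (levels under 6.58), and by another with 8.09 in HF and 7.99 in MAZ1310. The median of both was 7.19, 6.97 and 7.15 in the HF cultures, against 7.11, 6.89 and 7.10 in the MAZ1310 cultures. These overlapped, and the log2 fold change was 0.067 (SE 0.14, 95% CI -0.25 to 0.39, adjusted p = 0.913 by limma). The single probes had 0.035 and 0.098. Bcat2 had levels of 8.81, 9.07 and 9.10 in the HF cultures, against 9.13, 9.54 and 9.45 in the MAZ1310 cultures. The treatments were separated by only 0.030 log2 units, and the log2 fold change of -0.38 (SE 0.16, 95% CI -0.76 to 0.0024) did not pass (adjusted p = 0.306 by limma, unadjusted p = 0.0511). For Bcat1 against Bcat2 the difference of log2 fold changes was 0.45 (SE 0.23, exact two-sided permutation p = 0.2, also after adjustment over the 3 pairs). The cultures overlapped, with 0.72, 0.23 and 0.38 in HF and 0.32, -0.31 and -0.013 in MAZ1310.

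**Figure D2:**
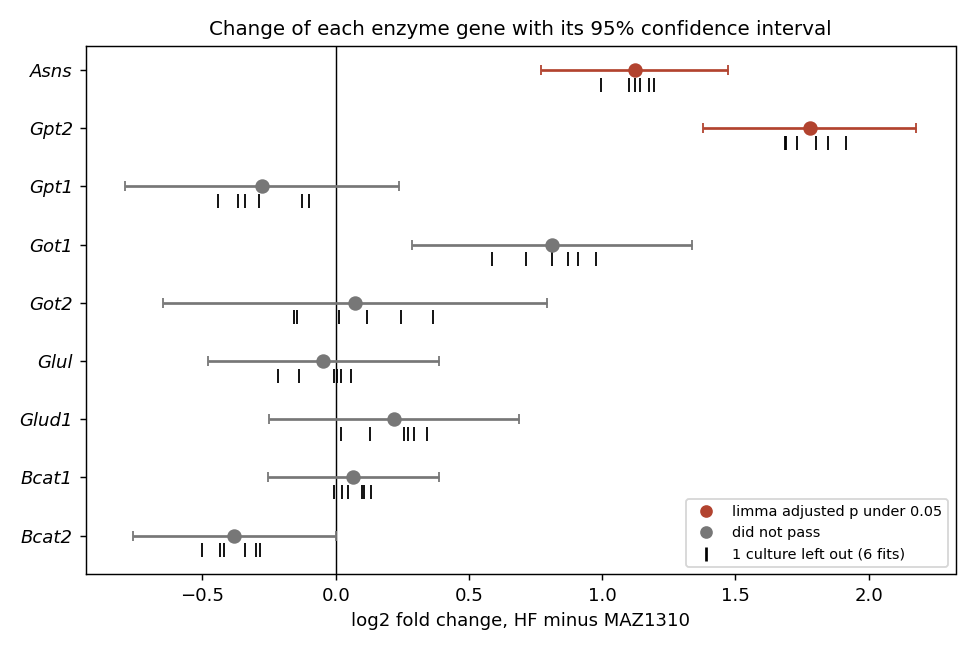
Log2 fold change, HF minus MAZ1310 (horizontal axis), of the 9 enzyme genes, with points for the estimate over 3 cultures per treatment and bars for its 95% CI from limma. Ticks under each point are the 6 fits with 1 culture left out. Gpt2 (1.78) and Asns (1.12) passed the test, the interval of Got1 (0.29 to 1.34) lies above 0 before adjustment, and the ticks of Got2, Glul and Bcat1 fall on both sides of 0.

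**Figure D3:**
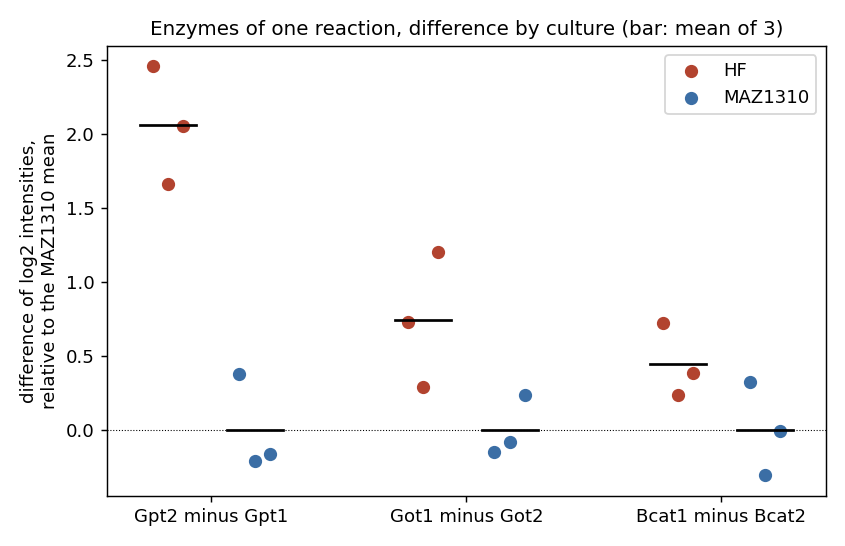
Difference of log2 intensities between enzymes of one reaction in each culture, relative to the MAZ1310 mean of that difference, for HF and MAZ1310 cultures (vertical axis, log2 units). Points are cultures and bars the mean of 3. HF and MAZ1310 cultures are separate for Gpt2 minus Gpt1 and Got1 minus Got2, and overlap for Bcat1 minus Bcat2.

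For Gpt2 and Asns the genes with the nearest pattern over the 6 cultures were taken from all genes. Likeness was measured as the root mean square difference of the log2 levels, each gene taken relative to its MAZ1310 mean. Nearest to Gpt2 were F3, the tissue factor that starts blood coagulation (0.105), the zinc finger gene Zc3h8 (0.139) and 2810026P18Rik (0.149). Nearest to Asns were the serpin Serpinb9g (0.0557), Cugbp2, an RNA-binding protein now named Celf2 (0.119), and Cdc42se2, which binds Cdc42 (0.125). The log2 fold changes of the first group ran from 1.70 to 1.77 and those of the second from 1.07 to 1.13, so that the measure found genes of nearly the same size of change.

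Around the 9 enzymes, 103 genes of glutamate, aspartate and branched-chain metabolism, of tRNA charging with the same amino acids and of their transport were measured. Of these, 6 rose and 2 fell while 95 were not called, 7.77% called beside 3.02% of all genes. The median log2 fold change was -0.047. Some of these genes were chosen with their results known, and Slc1a4 and Slc7a11 were picked by the study on these samples, so the share is given as a description.

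Among 23 genes of glutamine and glutamate metabolism, Aldh18a1 and Gfpt1 rose and 21 did not pass the test, with a list median of -0.16. Aldh18a1, which turns glutamate into the precursor of proline and ornithine, had levels of 10.22, 10.93 and 10.63 in HF, against 9.16, 8.73 and 9.18 in MAZ1310, all HF cultures being higher. Its log2 fold change was 1.57 (SE 0.22, adjusted p = 0.0216 by limma). Gfpt1, the glutamine-using first enzyme of the hexosamine pathway, had 0.88 (SE 0.15, adjusted p = 0.0344 by limma). Aldh4a1, which makes glutamate in proline breakdown, had -0.79 (adjusted p = 0.0713 by limma), and Gclc, which uses glutamate to begin glutathione synthesis, had -0.91 (adjusted p = 0.136 by limma).

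A list set around asparagine, aspartate and alanine metabolism gave no call among 17 measured genes. Of their log2 fold changes 8 of 17 were positive, and the list median was -0.065. The list was mixed and not limited to genes that use or break down these amino acids, as Agxt2l2 shows. The smallest p-values were those of Agxt2l2, a lyase of phosphohydroxylysine related in sequence to aminotransferases (0.66, adjusted p = 0.111 by limma), and Asnsd1, named for an asparagine synthetase domain (-0.43, adjusted p = 0.184 by limma). Another list of 10 genes was set around the malate-aspartate shuttle, in which Got1 and Got2 also work. It was wider than the shuttle, as it held the malic enzymes Me1 and Me2 and the carriers Slc25a10, Slc25a18 and Slc25a22. In this list Slc25a11 fell and 9 did not pass, with a median of -0.30. Slc25a11, the mitochondrial carrier of malate and 2-oxoglutarate, had levels of 11.84, 11.45 and 11.32 in HF, against 12.38, 12.43 and 12.31 in MAZ1310. These did not overlap, and the log2 fold change was -0.84 (SE 0.16, adjusted p = 0.0463 by limma). Slc25a10, the dicarboxylate carrier, had -0.82 (adjusted p = 0.234 by limma) and Slc25a13, an aspartate-glutamate carrier, had -0.49 (adjusted p = 0.259 by limma).

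Downstream of Bcat1 and Bcat2, 23 genes of branched-chain amino acid catabolism were measured, of which Bckdk fell and 22 did not pass. The list median was -0.093. Bckdk, the kinase that switches off the branched-chain keto acid dehydrogenase, had levels of 9.04, 8.81 and 9.01 in HF, against 9.90, 10.08 and 9.80 in MAZ1310. The HF cultures were all lower, with a log2 fold change of -0.97 (SE 0.14, adjusted p = 0.0217 by limma). Auh and Ivd, enzymes of leucine breakdown, had -0.53 (adjusted p = 0.138 by limma) and -0.41 (adjusted p = 0.189 by limma).

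Of 11 synthetases that charge tRNA with asparagine, alanine, glutamate, leucine, isoleucine or valine, Lars, Aars and Eprs rose and 8 did not pass, with a list median of 0.045. All 3 are cytosolic enzymes, but the cytosolic Nars, Vars and Iars (0.14, adjusted p = 0.805 by limma) were not called. None of the 5 mitochondrial ones measured (Nars2, Vars2, Lars2, Iars2 and Ears2, named after their values were seen) was called. As 3.02% of all genes were called, no difference between the compartments can be read from this. Lars, the leucyl-tRNA synthetase, had levels of 14.47, 14.11 and 14.63 in HF, against 12.81, 13.35 and 13.31 in MAZ1310. The HF cultures were all higher, by 1.25 in the mean (SE 0.21, adjusted p = 0.0304 by limma). Aars, the alanyl-tRNA synthetase, had 0.97 (SE 0.14, adjusted p = 0.0217 by limma), and Eprs, which charges both glutamate and proline, had 0.91 (SE 0.17, adjusted p = 0.0405 by limma). Nars, the asparaginyl-tRNA synthetase, which uses the product of Asns, had 0.91 (SE 0.26, adjusted p = 0.129 by limma), and the valyl-tRNA synthetase Vars had -0.34 (adjusted p = 0.435 by limma). Of 19 transporters, Slc1a4 rose and 18 did not pass, with a median of 0.12. Slc1a4, a carrier of alanine, serine and cysteine, had levels of 13.18, 12.81 and 13.28 in HF, against 10.51, 10.96 and 10.79 in MAZ1310. Its log2 fold change of 2.34 (SE 0.18, adjusted p = 0.0041 by limma) was the highest of the 103 genes. The cystine-glutamate exchanger Slc7a11 had 1.06 (adjusted p = 0.0829 by limma), and its partner subunit Slc3a2, shared with leucine transporters, had 0.78 (adjusted p = 0.0841 by limma).

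**Figure D4:**
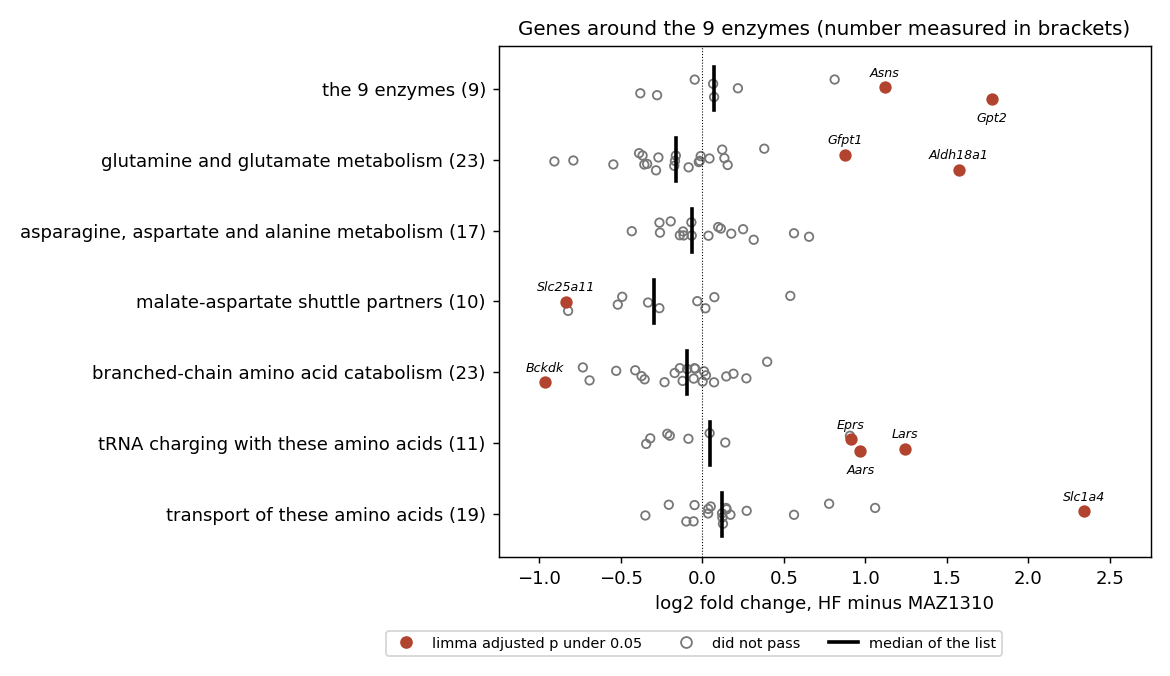
Log2 fold change, HF minus MAZ1310 (horizontal axis), of the 9 enzymes and of the genes measured in 6 lists around them, 1 point per gene. Filled points passed the limma test and black bars are list medians. The called genes are few in each list, with Slc1a4 (2.34) farthest to the right and Bckdk (-0.97) farthest to the left.

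The call of Slc1a4 held whichever culture was left out, with log2 fold changes of 2.22 to 2.48. Those of Gfpt1, Slc25a11 and Eprs ended without any 1 of the 6 cultures. Their log2 fold changes then ran from 0.80 to 0.98 for Gfpt1, from -0.99 to -0.73 for Slc25a11 and from 0.77 to 0.99 for Eprs. Bckdk (-1.03 to -0.89) and Lars (1.07 to 1.39) kept their calls only without MAZ1310 replicate 1. Aldh18a1 (1.40 to 1.76) kept its call without HF replicate 1 or MAZ1310 replicate 1, and Aars (0.87 to 1.06) without HF replicate 3 or MAZ1310 replicate 1. Without technical array 2 of HF replicate 3, Slc25a11 was not called (-0.61, adjusted p = 0.101 by limma), while the other called genes kept their calls. Slc25a11 also lost its call with the brightest probe per gene, the median over technical arrays, the culture as a random block and a variance trend in limma, and was called in 7 of the 18 alternatives. Gfpt1 lost its call with the brightest probe and the trend, and Eprs and Lars with the median over technical arrays. Of these 8 called genes 7 had a start window to search. TGATGNAA was found in 2 of the 7, those of Aars and Slc1a4, beside the 3.97% of all windows given above. GTTACAG was found in 1 of the 7, that of Bckdk, which fell in HF, beside 3.10% of all windows. These genes were called in the same data, from lists chosen with earlier results known, so neither share can be read as enrichment.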

How the data were processed

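NMuMG cells in 10 nM HF or MAZ1310 for 8 hr were hybridized in triplicate (3 cultures, 3 technical arrays each) to Phalanx Mouse Whole Genome OneArray chips with 1 dye. The authors deposited linear intensities, quantile-normalized over the arrays after removing every probe that was negative or missing somewhere. Scanner and background correction are not given in the sources used here, and no detection call was used.

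Probes were named by the platform's symbols (21020 of 21973 had 1 symbol and 953 none). Log2 intensities were reduced to the median per gene and averaged over technical arrays. HF was compared with MAZ1310 with limma 3.58.1 in R 4.3.3 (lmFit, eBayes, two-sided) over 16675 genes, with Benjamini-Hochberg adjustment, and isoenzyme pairs with an exact permutation test. Quantile normalization removes overall shifts between arrays, but the deposited arrays did not share exactly the same distribution. Array medians ran from 7.96 to 7.97, the highest intensity from 54896 to 65535 and the number of probes at 65535 from 0 to 48. Running the normalization again moved the log2 fold change of Asns from 1.12 to 1.16, and its call held (adjusted p = 0.0188 by limma). The number of cultures limits precision (median standard error 0.18). The limma p-values set the difference between treatments against the spread between cultures of a treatment, moderated over all genes.

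The members and gene lists were chosen with earlier results of these data known. The genes named by rule are the 9 enzymes and the called genes of each list (at most 4) with the 2 next by p. The 3 genes nearest in pattern to each called enzyme were also named by rule. Outside it were Iars, the mitochondrial synthetases, single marker genes and the members of the shuttle list given without values. Names follow the annotation, and synonyms were matched through the GRCm38.p6 gene table. The scripts were tested on simulated data. With 3 cultures per treatment, 4% of genes simulated with a 1.5-fold change were called, 34% with 2-fold and 84% with 4-fold (50 genes each). A missing call is therefore not a finding of no change. Alternatives covered scaling, dim probes, summaries, technical arrays, the replicate block, eBayes options, Storey q-values and left-out cultures. Replicate numbers were not taken as pairs.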

Additional observations from a re-analysis of the deposited data

How the results depend on the processing

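In the fits over genes the call of Gpt2 held in all 18 alternatives and that of Asns in 14, the exceptions being the 4 left-out cultures named above. In the fit over probes, Gpt2 was also lost without MAZ1310 replicate 2 (adjusted p = 0.0505 by limma) and Asns without HF replicate 3 (0.0548). With 1 culture left out, 1 to 2 enzymes, 1 to 5 of the surrounding genes and 48 to 339 of all genes were called, and the log2 fold change of Asns ran from 1.00 to 1.19. Of the 7 uncalled enzymes, only Got1 was called under any alternative. In left-out fits the log2 fold changes of Glul (-0.22 to 0.057), Got2 (-0.16 to 0.36) and Bcat1 (-0.0056 to 0.13) took both signs, and Glul had 0.0041 without technical array 2 of HF replicate 3, an alternative chosen after seeing the data. With the median over technical arrays 322 genes and 5 surrounding genes were called, and with the culture as a random block 1128 genes. With the replicate number as a block, 1792 genes and 14 surrounding genes were called, and Got1 passed the test (log2 fold change 0.81, limma adjusted p = 0.0225). HF and MAZ1310 cultures of the same number deviated together for replicates 1 and 3 (correlations 0.672 and 0.69) but hardly for replicate 2 (0.0792). MAZ1310 replicate 2 was nearer to HF replicate 3 (0.265). Each HF culture was still nearest to the MAZ1310 culture of its own number, HF replicate 2 having 0.0184 and -0.0902 with the others. The sample titles state no pairing, and the main fit did not use the number as a pairing. Whether cultures of the same number shared an effect was not tested. The direction of the 3 isoenzyme differences was the same under each alternative run. The cause of these differences was not tested. Bcat1's dimmer probe limits what its median can show.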
